A study of Caenorhabditis elegans with 12 samples.

Results

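The direct contrast between hda-1 RNAi and dve-1 RNAi in worms without mitochondrial stress was examined in mRNA from whole Caenorhabditis elegans. It rests on 4 of the 12 libraries of the series, 2 from worms fed bacteria carrying hda-1 RNAi and 2 from worms fed dve-1 RNAi, with none of them given atp-2 RNAi. The 2 libraries of worms fed L4440, the empty RNAi vector, served to show which side of a difference departed from the control. All of these worms carried glp-4(bn2), an allele that impairs germ-line growth in a temperature-dependent way, were cultured at 20 °C, and were collected on day 1 of adulthood. The text of the study on its mRNA sequencing speaks of wild-type animals and names no strain. Levels are in FPKM, the fragment number of a gene divided by transcript length and by the depth of sequencing. Each group had 1 value per gene, for both libraries combined. No spread between libraries can therefore be stated, none of the differences could be tested, and "called" describes the size of a difference between columns. Of 46245 genes in the table, 13337 had a mean of 1 FPKM or more over the 6 columns of the series and were kept.

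HDA-1 is a class I histone deacetylase, an enzyme that removes acetyl groups from histone tails and works within several chromatin complexes that restrain transcription. DVE-1 is a homeodomain protein related to mammalian SATB proteins and is known for its part in the mitochondrial unfolded protein response (UPRmt), in which damaged mitochondria prompt the nucleus to express chaperones and proteases. HDA-1 and DVE-1 have been placed in the same branch of that response, so the direct contrast asks at which genes feeding against one differs from feeding against the other when no mitochondrial stress is applied.

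The targeted genes were read first, because they check the labels. hda-1 itself (chromosome V, 14525389 to 14527411 in ce11) stood at 1207 FPKM in the column labelled hda-1 RNAi, against 24.04 FPKM in the dve-1 RNAi column and 18.8 FPKM in the L4440 column. This goes against the label, since the signal was 50.2-fold that of dve-1 RNAi where a knockdown should lower it. The study gauged this knockdown separately by quantitative PCR in wild-type worms, and marked the change in the hda-1 transcript as significant. Whether those worms shared cultures with the libraries read here is not stated. Whether reads from the RNAi trigger contributed was not tested, and the column is called by its label (column labelled hda-1 RNAi, or hda-1-labelled column) for every direction given. dve-1, by contrast, followed its label. Its level was 28.8 FPKM in the column labelled hda-1 RNAi, 11.11 FPKM in the dve-1 RNAi column and 25.4 FPKM in the L4440 column, so that the dve-1 RNAi column held 43.8% of the L4440 level. atp-2, which encodes the beta subunit of ATP synthase and was targeted in other groups of the series, was similar in these columns (861, 1090.1 and 1094 FPKM, in the same order).

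A gene was called when (FPKM + 1) in the column labelled hda-1 RNAi was 2-fold or more above or below that in the dve-1 RNAi column and the higher of the 2 values was at least 5 FPKM. By this rule 930 genes (6.97% of those kept) were higher in the hda-1-labelled column than in the dve-1 RNAi column, and 913 (6.85%) were lower. Both shares are the background for the counts of each gene list below. With 5 FPKM in place of 1 FPKM added to every value, 603 genes were called higher and 706 lower. Among protein-coding genes with at least 300 nt of exon, the numbers were 842 higher (6.71%) and 807 lower (6.43%) of 12547. The 2 directions were similar in number but not in size. In that set, 227 of the lower genes and 106 of the higher genes had a log2 ratio of at least 3 in size, and 48 and 14 reached 5. Most genes lay close to equality, with a median log2 ratio of -0.04 over all kept genes and a range of -1.76 to 1.46 between the percentiles 5 and 95 of protein-coding genes. At the threshold, unc-34 and ZC266.1 were just inside (log2 ratio 1.001 each) and hprt-1 just outside (0.999).

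**Figure D1:**
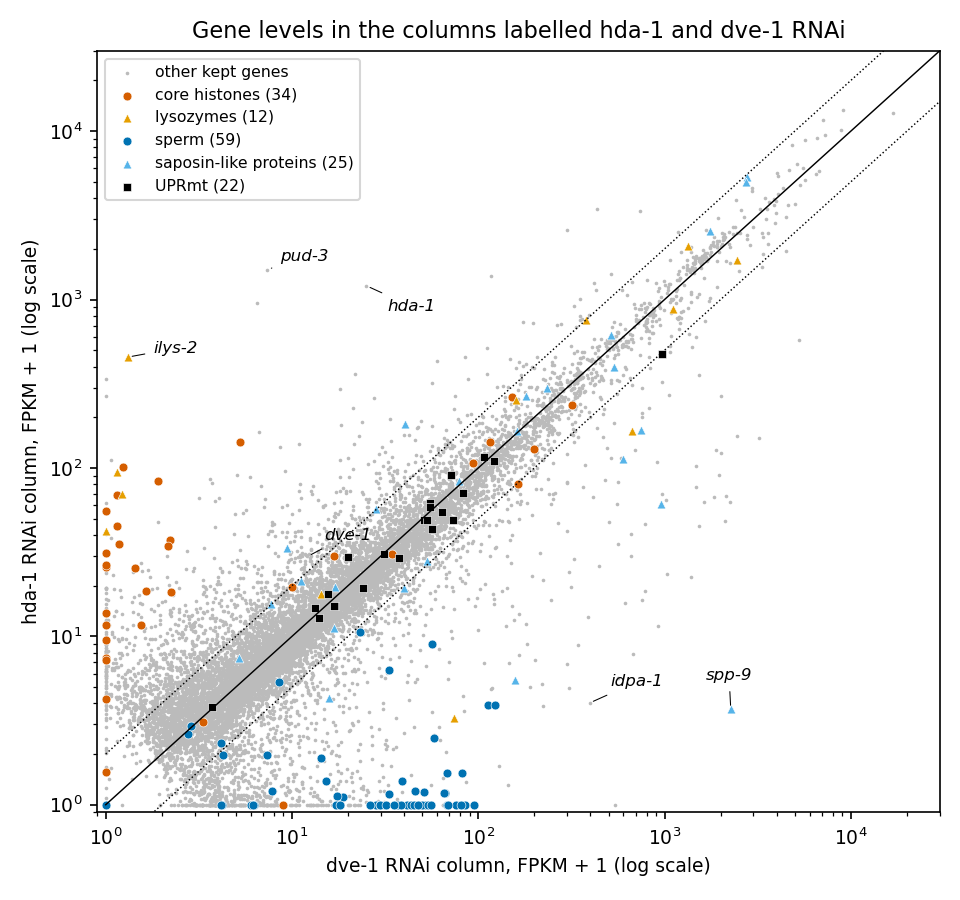
FPKM + 1 of each kept gene in the column labelled hda-1 RNAi (vertical, log scale) against the dve-1 RNAi column (horizontal, log scale), with 5 gene lists marked, a solid line of equality and dotted lines at 2-fold. Points with core histone genes sit far above the line at low dve-1 RNAi levels, sperm genes lie along the bottom, and UPRmt genes follow the line.

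The level in L4440 worms showed which column stood apart at each called gene. Of the 930 genes called higher, 626 (67.3%) were 2-fold or more above L4440 in the column labelled hda-1 RNAi while the dve-1 RNAi column was not 2-fold below it. At 134 (14.4%) it was the dve-1 RNAi column that lay 2-fold below L4440, with the column labelled hda-1 RNAi not 2-fold above it. At 31 (3.33%) both columns departed in opposite directions, and at 139 (14.9%) neither departed by 2-fold in the direction of the call. The 913 genes called lower were divided otherwise. At 354 of them (38.8%) the dve-1 RNAi column stood 2-fold above L4440 and the column labelled hda-1 RNAi was not 2-fold below it. At 236 (25.8%) the column labelled hda-1 RNAi stood below L4440 and the dve-1 RNAi column was not above it, at 199 (21.8%) both departed in opposite directions, and at 124 (13.6%) neither did. These classes count departures in the direction of the call, and the other column could lie 2-fold from L4440 on the same side. It did so at 71 of the 626 and 4 of the 134 higher genes, and at 80 of the 354 and 15 of the 236 lower genes. Both ratios share the L4440 value, and the medians over all kept genes were 0.16 (log2) for the column labelled hda-1 RNAi over L4440 and 0.22 for dve-1 RNAi over L4440. The filter on low values set part of the classes. Of the 930 higher genes, 171 were kept only through the hda-1-labelled columns. Of the 913 lower genes, 99 were kept only through the dve-1-labelled columns.

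**Figure D2:**
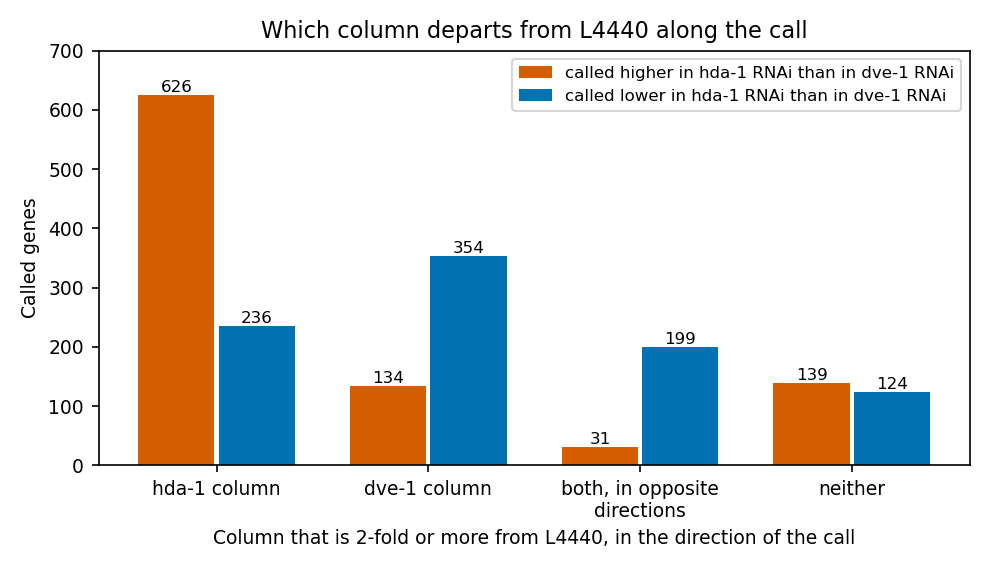
Number of called genes by the column that was 2-fold or more from L4440 in the direction of the call, for genes called higher (orange) and lower (blue) in the hda-1-labelled column than in the dve-1 RNAi column. The largest class is the 626 higher genes at which the column labelled hda-1 RNAi departed along the call, and the next is the 354 lower genes at which the dve-1 RNAi column did. The filter set part of this, with 171 of all higher genes kept only through the hda-1-labelled columns and 99 of all lower genes only through the dve-1-labelled ones.

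Some genes of lysozymes, enzymes that cleave bacterial cell walls, were called, and they went in both directions. ilys-2 (chromosome IV, 2467678 to 2468879) had the largest ratio of all higher protein-coding genes, with 454 FPKM in the column labelled hda-1 RNAi, 0.318 FPKM in the dve-1 RNAi column and 0 FPKM listed in the L4440 column (log2 ratio 8.43). Its neighbour ilys-3, 2234 bases away, was at 41.1 FPKM in the column labelled hda-1 RNAi and listed at 0 in both other columns. lys-10 stood at 93.5, 0.151 and 0.0856 FPKM, and lys-3 at 68.9, 0.224 and 1.195 FPKM, in the columns labelled hda-1 RNAi, dve-1 RNAi and L4440. These 4 genes were thus nearly silent outside the column labelled hda-1 RNAi, and all 4 passed the filter on low values only through the hda-1-labelled columns. The other pair of called lysozymes went the opposite way. lys-6 was at 2.26 FPKM in the column labelled hda-1 RNAi, 73.1 FPKM in the dve-1 RNAi column and 0.469 FPKM in L4440, and lys-4 was at 165, 669 and 9.42 FPKM. Of 12 lysozyme genes kept of 16 in the table, 4 were called higher and 2 lower. The count of higher calls carries no weight as evidence, because the filter fixed its direction. Over the 8 genes not kept through 1 RNAi alone, none was called higher and 2 were called lower, with a median log2 ratio of -0.009. Over all kept genes the shares were 6.97% and 6.85%. The abundant lys-1 (2072, 1336 and 1776 FPKM) was not called.

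Next in size were pud-3 and pud-4, neighbours on chromosome V that are named for proteins that accumulate in daf-2 mutants. pud-3 (2324634 to 2325152) stood at 1505 FPKM in the column labelled hda-1 RNAi, 6.38 FPKM in the dve-1 RNAi column and 8.39 FPKM in L4440 (log2 ratio 7.67). pud-4, 1525 bases away on the other strand, was at 959, 5.48 and 3.59 FPKM (log2 ratio 7.21). folr-1, a folate receptor gene, was at 110.3, 0.0628 and 0 FPKM in the same order. In each of these the dve-1 RNAi and L4440 columns were close, and the column labelled hda-1 RNAi stood apart. cpr-4, a cathepsin B-type protease gene, had a higher baseline, with 3424 FPKM in the column labelled hda-1 RNAi, 431 FPKM in the dve-1 RNAi column and 147 FPKM in L4440 (log2 ratio 2.99). Here dve-1 RNAi was itself above L4440, and the column labelled hda-1 RNAi was further above.

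Core histone genes were a large family among those higher in the hda-1-labelled column. his-59, which encodes histone H3, stood at 100.1 FPKM there, against 0.234 FPKM in the dve-1 RNAi column and 0.271 FPKM in L4440 (log2 ratio 6.36). his-32, also an H3 gene, was at 68.1, 0.147 and 0 FPKM, and the H2A gene his-3 was at 83.0, 0.906 and 0.475 FPKM. All 4 classes of core histone were represented, with the H4 gene his-60 at 142, 4.27 and 5.06 FPKM and the H2B gene his-4 at 34.3, 0.172 and 0.393 FPKM. Of 72 core histone genes 34 were kept, and of these 21 were called higher, 2 lower and 11 not called, with a median log2 ratio of 3.14. All 21 departed on the hda-1 side only. This count carries no weight as evidence, because 20 of the 34 were kept only through the hda-1-labelled columns, among them 18 of the 21 called higher. Over the 14 genes not kept in this way, 3 were called higher and 2 lower, with a median log2 ratio of 0.25. The other 38 histone genes were below the filter. Their coding sequences are nearly identical to each other, and only uniquely mapping reads were kept, so the level of any single copy is uncertain.

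The 2 core histone genes called lower were his-70, an H3.3-type variant (0 FPKM in the column labelled hda-1 RNAi, 7.94 FPKM in the dve-1 RNAi column and 2.73 FPKM in L4440), and his-41, an H2B gene (79.2, 162 and 165 FPKM). Linker histones were mixed. hil-3 was at 57.2, 6.05 and 3.71 FPKM and his-24 at 47.3, 15.6 and 12.3 FPKM, both higher in the hda-1-labelled column, while hil-1 was lower at 33.3, 82.2 and 61.8 FPKM. A list of 27 genes for S phase and histone mRNA processing was read beside the core histones. The 14 core histone genes not kept through 1 RNAi alone had a median log2 ratio of 0.25, so the 2 lists cannot be set apart. None of the 27 was called higher and 1 was called lower, beside 6.97% and 6.85% over all kept genes. The lower gene was the cyclin gene cyb-1 (7.95, 17.9 and 9.93 FPKM), no longer called with 5 FPKM added. The median log2 ratio of the 27 was 0.13.

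Some runs of called neighbours on the chromosomes held members of these families. Runs of 3 or more called protein-coding genes in 1 direction, with gaps of 10 kb or less, numbered 24 among higher genes (82 genes) and 27 among lower genes (92 genes), and the longest held 5 genes each. Histone quartets or parts of them were among the higher runs, namely his-61, his-62, his-60 and his-59 on chromosome IV (7485834 to 7488659, median log2 ratio 4.38), his-8 to his-5 on V (8532715 to 8535525, 4.71), his-4 to his-1 on V (16040144 to 16042831, 5.37), and his-31 with his-32 on IV. The last pair shares its run with lys-10, which lies 153 bases from his-31 and 786 bases from his-32. The genes his-8 to his-5, his-4 to his-1, his-31 and his-32 were below 1 FPKM in the dve-1 RNAi and L4440 columns. They passed the filter only through the hda-1-labelled columns, so the direction of these runs was fixed by it. How many runs kept genes would form without regard to the calls was not computed. Strand use in counting is not stated, so reads of lys-10 and its histone neighbours may not be fully separable.

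Cytochrome P450 genes, whose products oxidise foreign compounds and lipids, gave another run on chromosome V (3936326 to 3963815). It held cyp-35A5 (19.3 FPKM in the column labelled hda-1 RNAi, 2.97 FPKM in the dve-1 RNAi column and 4.79 FPKM in L4440), cyp-35B1 (41.3, 6.81 and 16.02 FPKM), cyp-35B2 (15.3, 0.0299 and 0.693 FPKM), cyp-34A4 and cyp-34A7. Over the family, 14 of 64 kept genes were called higher (21.9%) and 6 lower (9.38%), beside 6.97% and 6.85% over all kept genes. Of the 14, 3 had passed the filter only through the hda-1-labelled columns and so had to be higher. The lower ones included cyp-25A2 (26.2, 148.8 and 114 FPKM) and cyp-25A1 (20.3, 81.1 and 141 FPKM), at which the column labelled hda-1 RNAi lay below L4440. Of the other detoxification families, glutathione S-transferases and UDP-glucuronosyltransferases leaned the same way. Short-chain dehydrogenases (3 higher and 4 lower of 30 kept) and ABC transporters (2 higher and 1 lower of 38 kept) did not. Of 41 glutathione S-transferases, 12 were higher (29.3%) and 2 lower (4.88%). Of 56 UDP-glucuronosyltransferases, 16 were higher (28.6%) and 4 lower (7.14%). Of these higher calls, 1 glutathione S-transferase and 2 UDP-glucuronosyltransferases were kept only through the hda-1-labelled columns. Their median log2 ratios were 0.67 and 0.51, beside -0.04 for all kept genes.

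Some of these detoxification genes were set by the dve-1 side. gst-38 was at 65.6 FPKM in the column labelled hda-1 RNAi and 64.3 FPKM in L4440, and only the dve-1 RNAi column, at 2.16 FPKM, was low (log2 ratio 4.40 between the RNAi columns). gst-13 was at 175 FPKM in the column labelled hda-1 RNAi, 46.5 FPKM in the dve-1 RNAi column and 310.3 FPKM in L4440. gst-39 ran the other way, with 107 FPKM in the column labelled hda-1 RNAi, 910.4 FPKM in the dve-1 RNAi column and 122 FPKM in L4440 (log2 ratio -3.08). Among glutathione S-transferases, dve-1 RNAi was thus far below L4440 at gst-38 and far above it at gst-39. The lower calls of the family were 4.88% of its kept genes, beside 6.85% over all kept genes.

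Several other genes were low in the dve-1 RNAi column alone. grd-4, a hedgehog-related gene, was at 22.2 FPKM in the column labelled hda-1 RNAi, 0.0903 FPKM in the dve-1 RNAi column and 19.1 FPKM in L4440 (log2 ratio 4.41), and its neighbour grd-14 was at 24.01, 1.71 and 14.7 FPKM. irg-1, an infection response gene, was at 18.3, 1.46 and 12.6 FPKM, and C32H11.4 was at 78.8, 9.98 and 70.6 FPKM. cpl-1, a cathepsin L-type protease, was at 3357 FPKM in the column labelled hda-1 RNAi, 739 FPKM in the dve-1 RNAi column and 2518 FPKM in L4440. In all 5 of these the column labelled hda-1 RNAi was within 2-fold of L4440, and the call came from dve-1 RNAi. At spp-1, a saposin-like antimicrobial gene, both RNAi columns were below L4440 (181, 39.5 and 333 FPKM), and dve-1 RNAi was the lower.

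Lysosomal lipases, which release fatty acids from stored lipid, were called in 1 direction only, with dve-1 RNAi low. lipl-1 was at 37.2 FPKM in the column labelled hda-1 RNAi, 0.0724 FPKM in the dve-1 RNAi column and 6.33 FPKM in L4440 (log2 ratio 5.154). lipl-3 was at 9.31, 0.0762 and 8.18 FPKM, lipl-2 at 71.5, 9.96 and 22.2 FPKM, and lipl-5 at 1255, 415 and 1046 FPKM. Of 7 lipases kept, these 4 were called higher (57.1%) and none lower, beside 6.97% and 6.85% over all kept genes. In each the dve-1 RNAi column was at least 2-fold below L4440, and at lipl-1 and lipl-2 the column labelled hda-1 RNAi was also 2-fold or more above it. Similar opposite departures were seen at cyp-37B1 (46.5, 0.908 and 14.2 FPKM) and at the metallothionein gene mtl-2 (2585, 297 and 954 FPKM), whose product binds metal ions.

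The second metallothionein gene, mtl-1, had the reverse ratio. It stood at 354 FPKM in the column labelled hda-1 RNAi, 1529 FPKM in the dve-1 RNAi column and 1296 FPKM in L4440 (log2 ratio -2.11), so here the column labelled hda-1 RNAi was the one that departed. The cadmium-responsive genes cdr-4, cdr-6, cdr-2 and cdr-3, a run on chromosome V (12407366 to 12417377), were also lower in the hda-1-labelled column than with dve-1 RNAi. cdr-2 was at 84.6, 235.0 and 205 FPKM and cdr-4 at 209, 467 and 157 FPKM. At cdr-4 the dve-1 RNAi column lay above L4440, and at cdr-2 the column labelled hda-1 RNAi lay below it.

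**Figure D3:**
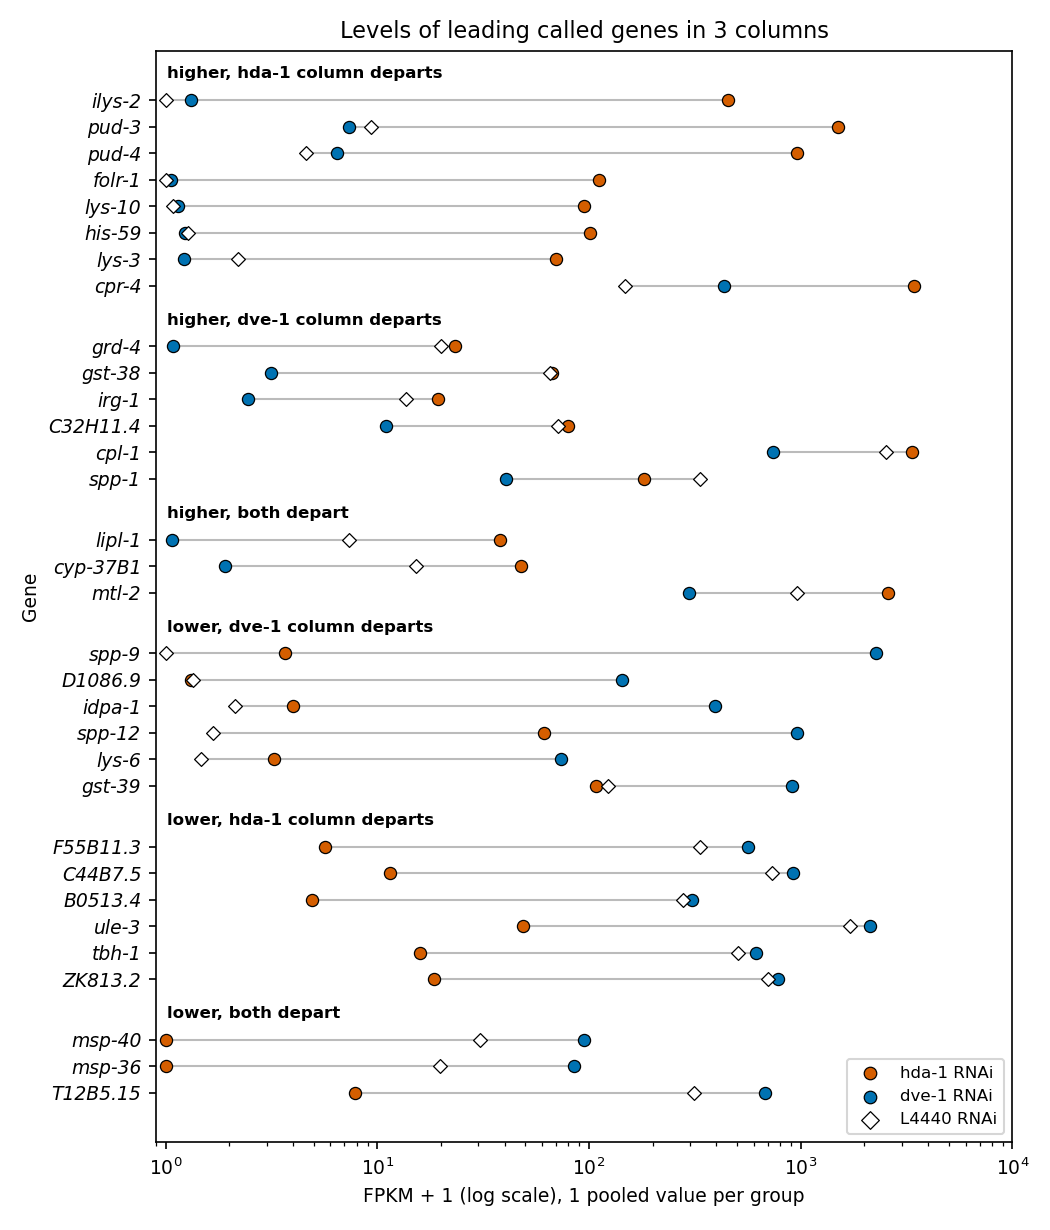
FPKM + 1 (horizontal, log scale) of 32 leading called genes in the columns labelled hda-1 RNAi (orange), dve-1 RNAi (blue) and L4440 RNAi (white), 1 pooled value each, grouped by the column that departed from L4440 in the direction of the call. At ilys-2 the column labelled hda-1 RNAi stands at 454 FPKM with both others below 1, and at spp-9 the dve-1 RNAi column stands at 2266 FPKM.

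The largest ratio of the whole contrast was at a gene with high signal under dve-1 RNAi. spp-9, a saposin-like gene on chromosome X (11487784 to 11488203), was at 2.68 FPKM in the column labelled hda-1 RNAi, 2266 FPKM in the dve-1 RNAi column and listed at 0 in L4440 (log2 ratio -9.27). Saposin-like proteins include caenopores, which permeabilise bacterial membranes. spp-12 was at 60.5, 959.9 and 0.672 FPKM, spp-21 at 4.49, 157 and 0 FPKM, and spp-4 at 167, 748 and 58.7 FPKM. In all 4 genes dve-1 RNAi was far above both other columns. Of 25 saposin-like genes kept, 7 were called lower (28%) and 4 higher (16%) in the hda-1-labelled column than with dve-1 RNAi. Over all kept genes the shares were 6.85% and 6.97%. At 6 of the 7 the dve-1 RNAi column departed from L4440 in the direction of the call. At 5 of those 6 the column labelled hda-1 RNAi was also 2-fold or more above L4440.

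Other genes had the same profile of high signal with dve-1 RNAi. idpa-1 was at 3.02 FPKM in the column labelled hda-1 RNAi, 394 FPKM in the dve-1 RNAi column and 1.13 FPKM in L4440 (log2 ratio -6.62). D1086.9 was at 0.315, 143 and 0.355 FPKM, and its neighbour H39E23.3 at 21.5, 1392 and 131 FPKM. D1086.9 showed no departure at all in the column labelled hda-1 RNAi, whereas at H39E23.3 that column was below L4440 as well. Among digestive proteases, the aspartic protease gene asp-17 was at 212, 760.0 and 41.1 FPKM, asp-12 at 7.95, 182 and 22.8 FPKM, and the cathepsin B-type gene cpr-3 at 114, 517 and 85.2 FPKM. With cpr-4 and cpl-1 on the higher side, 3 of 20 digestive protease genes kept were called higher (15%) and 4 lower (20%), so the family did not move as a block. Over all kept genes the shares were 6.97% and 6.85%.

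A separate group of lower genes was abundant in both the dve-1 RNAi and L4440 columns and scarce in the column labelled hda-1 RNAi. C44B7.5 was at 10.5 FPKM in the column labelled hda-1 RNAi, 923 FPKM in the dve-1 RNAi column and 734 FPKM in L4440 (log2 ratio -6.33). F55B11.3 was at 4.68, 564 and 334 FPKM, its neighbour F55B11.2 at 15.4, 752 and 626 FPKM, and B0513.4 at 3.94, 307 and 276 FPKM. In these 4 genes the dve-1 RNAi and L4440 columns lay within 2-fold of each other. ule-3, named for expression in the lumen of the uterus, was at 47.5, 2117 and 1704 FPKM and its relative ule-5 at 155, 2454 and 1889 FPKM. tbh-1, which encodes tyramine beta-hydroxylase, the enzyme that makes octopamine, was at 14.9, 613 and 505 FPKM. tbh-1 was outside the rule for naming genes and was chosen after its values were seen, as were F55B11.2 and ule-3.

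Runs of neighbours were common in this group. On chromosome X, ZK813.3, ZK813.2, ZK813.7 and ZK813.1 (3441839 to 3446935) had a median log2 ratio of -5.12, with ZK813.3 at 61.4 FPKM in the column labelled hda-1 RNAi, 2238 FPKM in the dve-1 RNAi column and 1543 FPKM in L4440. Also on X, Y62H9A.3, Y62H9A.4, Y62H9A.5 and ule-5 (11879110 to 11884042) had a median of -4.06. On chromosome V, 5 genes of clone D1086 (14067866 to 14085811), among them D1086.10 at 69.4, 967 and 795 FPKM, had a median of -3.78. All genes of both X runs departed on the hda-1 side only.

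The germ line was read through lists of its known genes, because glp-4(bn2) limits it. Sperm genes were at or near 0 in the column labelled hda-1 RNAi. The major sperm protein genes, whose products drive the crawling of nematode sperm, gave msp-40 at 0, 93.7 and 29.6 FPKM and msp-36 at 0, 84.1 and 18.8 FPKM in the columns labelled hda-1 RNAi, dve-1 RNAi and L4440. gsp-4, a sperm phosphatase gene named after its values were seen, was at 0.8998, 13.4 and 3.54 FPKM. Over all 76 sperm genes in the table, the summed level was 48.4 FPKM in the column labelled hda-1 RNAi, 2225 FPKM in the dve-1 RNAi column and 580.2 FPKM in L4440. Of the 59 that were kept, 34 were listed at 0 in the column labelled hda-1 RNAi, 1 in the dve-1 RNAi column and 0 in L4440. None was called higher and 51 were called lower (86.4%, beside 6.85% over all kept genes), and 43 of the 51 departed from L4440 on both sides. The median level over those kept was 0, 32.3 and 8.44 FPKM. The msp genes are near-identical copies, so the level of a single one is uncertain. Only 5 of the 59 were kept through the dve-1-labelled columns alone.

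Small-RNA genes of sperm development followed the same order. The Argonaute genes alg-3 (0.171, 5.40 and 2.06 FPKM) and alg-4 (0, 6.37 and 2.32 FPKM) were the only 2 of 43 Argonaute and small-RNA pathway genes to be called, both lower in the hda-1-labelled column. Their share of that list was 4.65%, beside 6.85% called lower over all kept genes. Genes of oocytes and the early germ line differed less. Of 33 kept, 5 were called lower (him-3, cpg-1, cpg-2, gld-1 and perm-4) and none higher, with a median log2 ratio of -0.72. The lower share was 15.2%, beside 6.85% over all kept genes. Against L4440, the median log2 ratio of the list was -0.02 in the column labelled hda-1 RNAi and 0.55 in the dve-1 RNAi column. At 4 of the 5 called genes, neither column departed by 2-fold in the direction of the call. gld-1, an RNA-binding regulator of meiosis, was at 11.54, 27.1 and 16.5 FPKM. With 5 FPKM added, gld-1 (log2 ratio -0.96) and cpg-1 (-0.91) were no longer called. Germ-line levels thus moved with the contrast, and their part in the other differences was not tested. In whole worms, fewer cells of a type and less RNA per cell cannot be told apart. Without the sperm, core histone and oocyte lists, 909 genes were called higher and 855 lower.

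Markers of other tissues were present in all 3 columns and differed less. The 4 body wall muscle markers (unc-54, myo-3, unc-15 and unc-22) summed to 1819 FPKM in the column labelled hda-1 RNAi, 1723 FPKM in the dve-1 RNAi column and 1607 FPKM in L4440, with none called. The 5 neuronal markers summed to 413, 442 and 360 FPKM, also with none called. Their median log2 ratio between the RNAi columns was 0.55, so the sums do not show the direction of the median marker. The 5 intestinal markers summed to 997, 567 and 860.1 FPKM. Of these, act-5, the actin of the intestinal brush border (752, 349.9 and 629.6 FPKM), and ifb-2, an intestinal intermediate filament (141, 69.5 and 78.9 FPKM), were called higher in the hda-1-labelled column, ifb-2 not with 5 FPKM added (log2 ratio 0.97). elt-2, the GATA factor that specifies intestinal genes, was not (14.2, 16.7 and 7.61 FPKM).

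The vitellogenins, yolk proteins made by the intestine, shared the direction of act-5 without being called. vit-5 was at 8297 FPKM in the column labelled hda-1 RNAi, 4831 FPKM in the dve-1 RNAi column and 8318 FPKM in L4440, and the median log2 ratio of the 6 genes was 0.66. All 6 were above 0, from 0.19 at vit-6 to 0.78 at vit-5. With 1 value per group, a ratio below 2-fold is reported as a level and not as a difference.

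Genes of the UPRmt were close to equal. The mitochondrial chaperone gene hsp-6 was at 116 FPKM in the column labelled hda-1 RNAi, 106 FPKM in the dve-1 RNAi column and 107 FPKM in L4440. hsp-60, the other classical reporter gene, was at 28.5, 19.1 and 17.9 FPKM (log2 ratio 0.56), and atfs-1, the transcription factor of the response, at 61.3, 54.2 and 67.4 FPKM. Of 22 genes on the list, all kept, 1 was called lower (4.55%) and none higher, beside 6.85% and 6.97% over all kept genes. The median log2 ratio was -0.12. The called gene, gpd-2, which encodes the glycolytic enzyme GAPDH, was at 474, 963 and 871 FPKM (log2 ratio -1.02) and fell short of 2-fold under both other scalings (-0.97 and -0.95). The others ran from -0.58 at sod-2 to hsp-60, with lonp-1, clpp-1, spg-7, ymel-1, ppgn-1, haf-1, dnj-10, ubl-5, phb-1, phb-2, timm-23, timm-17B.1, tin-44, tomm-20, tomm-22, tomm-40 and Y22D7AL.10 between -0.38 and 0.35. Stress-free worms with either RNAi label therefore gave UPRmt levels less than 2-fold apart at 21 of 22 genes.

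The basic machinery of mitochondria and translation was likewise within 2-fold. None was called among 48 nuclear genes of the respiratory chain and ATP synthase, 70 mitochondrial ribosome genes, 77 cytosolic ribosome genes, 33 proteasome genes or 34 aminoacyl-tRNA synthetases. Mitochondrial propionate breakdown was an exception. acdh-1, the acyl-CoA dehydrogenase that opens the propionate shunt, was at 80.7 FPKM in the column labelled hda-1 RNAi, 298 FPKM in the dve-1 RNAi column and 1002 FPKM in L4440 (log2 ratio -1.87). hach-1 was at 59.6, 149 and 273 FPKM and ech-6 at 155, 323 and 709 FPKM, and ech-6 fell just below 2-fold under upper-quartile scaling (-0.98). All 3 were below L4440 in both RNAi columns and lowest in the column labelled hda-1 RNAi. Of 11 genes on this list, these 3 and no others were called, all lower (27.3%, beside 6.85% over all kept genes). The list had a median log2 ratio of -0.85.

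**Figure D4:**
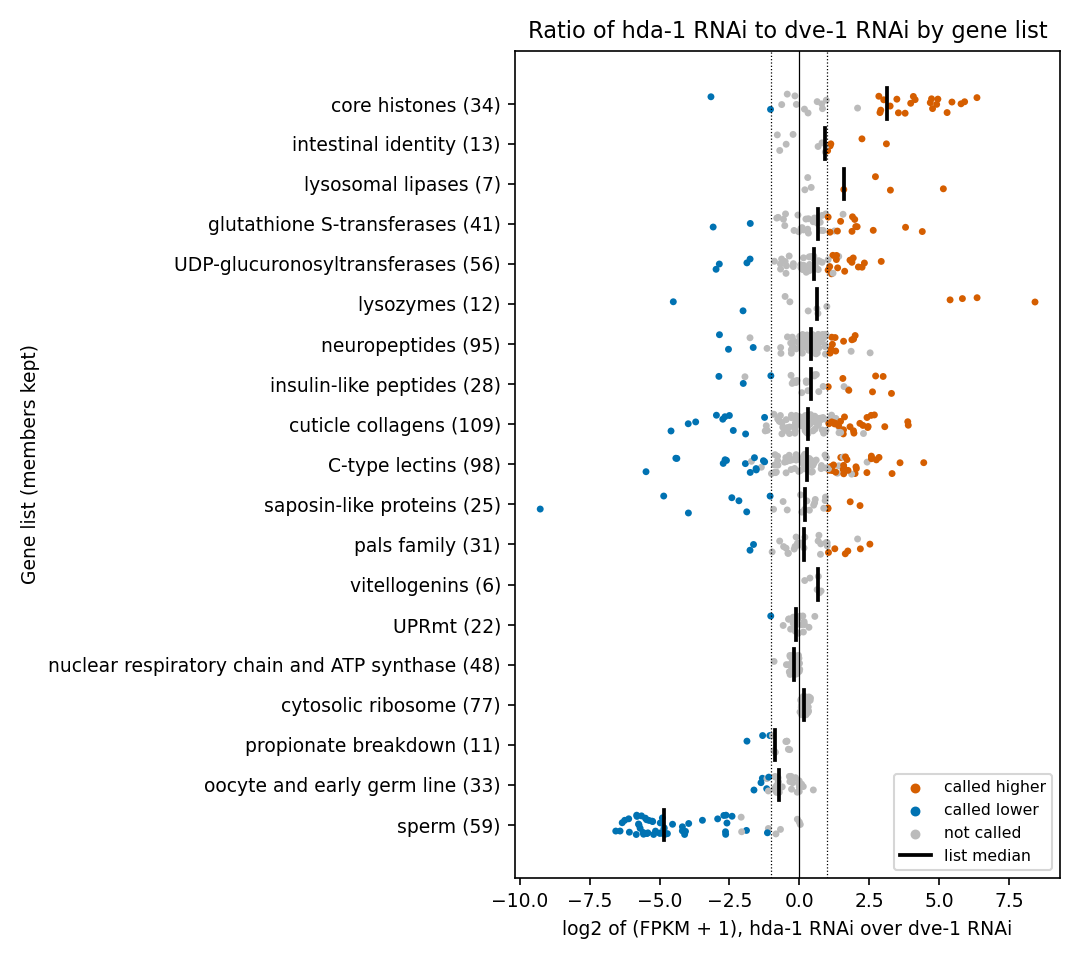
Log2 ratio of (FPKM + 1), column labelled hda-1 RNAi over dve-1 RNAi (horizontal), for each kept member of 19 gene lists, with called members in colour, list medians as black bars and dotted lines at 2-fold. The core histone median is at 3.14 and the sperm median at -4.85, both set in part by genes listed at or near 0, while the UPRmt median is at -0.12. Over the 14 core histone genes not kept through 1 RNAi alone, the median is 0.25.

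Pathogen response genes showed signal above L4440 on both sides. The pals genes, a family induced by intracellular infection, had a median log2 ratio to L4440 of 2.08 in the column labelled hda-1 RNAi and 1.18 in the dve-1 RNAi column over 31 kept genes. The filter fixed part of these medians, since 8 of the 31 were kept only through the hda-1-labelled columns and 2 only through the dve-1-labelled ones, with 1 gene counted in both. Over the other 22 genes the medians were 1.79 and 0.98. Against each other, the columns differed less, with a median log2 ratio of 0.06 over those 22 genes. pals-1 was higher in the hda-1-labelled column (18.7, 2.42 and 0.331 FPKM), as was pals-4 (14.8, 2.48 and 0.396 FPKM), whereas pals-6 (25.1, 80.2 and 2.303 FPKM) and pals-5 (1.801, 8.50 and 0 FPKM) were lower, pals-5 not past 2-fold with 5 FPKM added (log2 ratio -0.99). In all, 6 were called higher (19.4%) and 2 lower (6.45%), beside 6.97% and 6.85% over all kept genes. Of these, 1 higher call rested on a gene kept only through the hda-1-labelled columns, and 1 lower call on a gene kept only through the dve-1-labelled ones. eol-1, another gene of that response, was at 86.2, 33.95 and 0.855 FPKM. C-type lectins, carbohydrate-binding proteins of which many respond to bacteria, gave 25 higher (25.5%) and 13 lower (13.3%) of 98 kept. Of the higher calls, 4 rested on genes kept only through the hda-1-labelled columns. Of the lower calls, 2 rested on genes kept only through the dve-1-labelled ones. clec-80 (80.8, 2.74 and 12.5 FPKM) and clec-48 (431, 58.8 and 133 FPKM) were higher in the hda-1-labelled column, clec-222 (0.450, 63.8 and 41.1 FPKM) was lower, and clec-60 (34.5, 103 and 0.139 FPKM) was above L4440 in both columns and higher with dve-1 RNAi.

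Called genes were unevenly spread over the chromosomes. On V, 300 of 2631 kept genes were higher in the hda-1-labelled column, while on I it was 77 of 2158. The lower genes ranged from 4.97% of kept genes on III to 9.55% on IV, a chromosome that carries many msp genes. No test was made of these shares, since neighbouring members of 1 family are not independent.

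The worms with added atp-2 RNAi provided a second pair of columns, labelled hda-1+atp-2 RNAi and dve-1+atp-2 RNAi, that shares no library with the pair described. In that pair 7% of kept genes were called higher and 6.06% lower. Of the 930 genes called higher without atp-2 RNAi, 888 (95.5%) had a ratio in the same direction with it and 652 (70.1%) were called, and of the 913 called lower, 862 (94.4%) had the same direction and 657 (71.96%) were called. Over all kept genes, 51.7% had a ratio above 0 in the second pair. The filter averaged all 6 columns, so part of the agreement between the pairs was built in. Of the 930, 171 were kept only through the hda-1-labelled columns, and of the 913, 99 were kept only through the dve-1-labelled ones. ilys-2 was at 396 FPKM in the column labelled hda-1+atp-2 RNAi and 0.580 FPKM in the dve-1+atp-2 RNAi column, and spp-9 was at 1.71 and 408 FPKM. hda-1 itself was again high, at 811 and 25.1 FPKM, so the second pair carries the same conflict with its label.

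**Figure D5:**
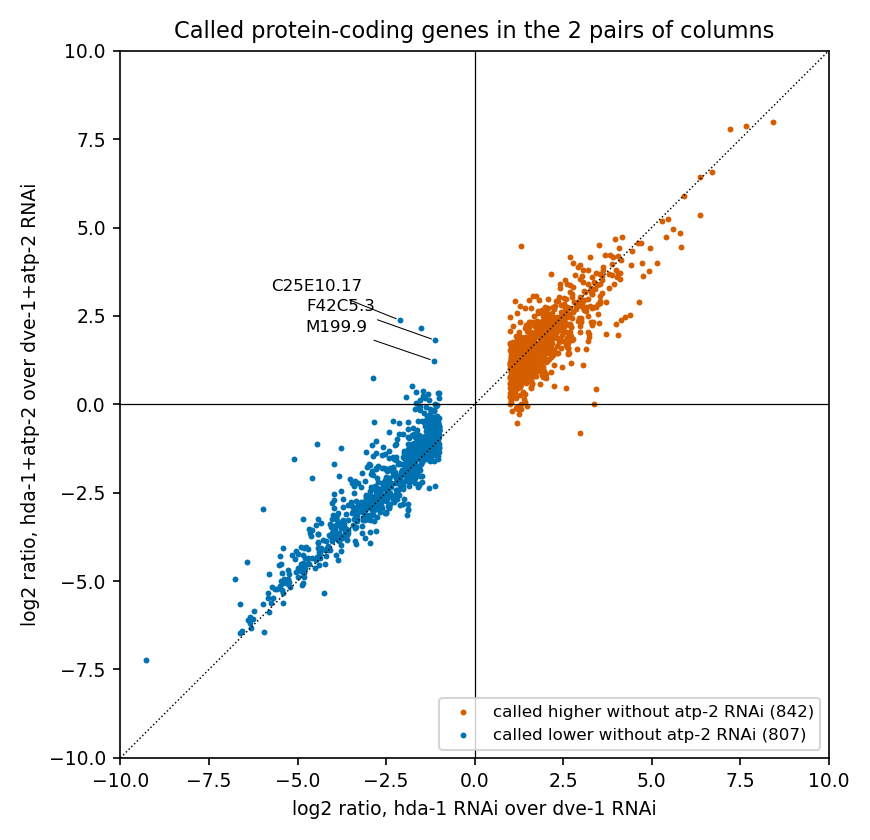
Log2 ratio of hda-1+atp-2 RNAi over dve-1+atp-2 RNAi (vertical) against that of hda-1 RNAi over dve-1 RNAi (horizontal), columns by their labels, for the 842 protein-coding genes called higher (orange) and the 807 called lower (blue) without atp-2 RNAi, with a dotted line of equality. Most points keep their sign, and the 3 named genes were called in opposite directions.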

How the data were processed

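Whole-worm mRNA from 12 libraries (6 groups of 2) was sequenced by the authors. Per the labels and methods, reads were aligned to ce11 with TopHat2 2.1.1, uniquely mapping reads were kept, and Cufflinks gave FPKM. The deposited table holds 1 FPKM value per gene and group, with both libraries pooled and no count or error. Whether the libraries of a group were separate cultures, how RNA was selected before library preparation, and strandedness are not given in the sources used here. The labels place the atp-2 RNAi 30 h after the first RNAi, and the methods give another timing.

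Of 46245 identifiers, 45990 matched Ensembl release 115 (WBcel235, the same assembly as ce11). Genes with a mean of 1 FPKM or more over the 6 columns were kept, and ratios were taken on FPKM + 1, which understates those of low genes. Calls needed 2-fold and 5 FPKM in the higher column. On a 1 kb transcript, 5 FPKM was put at 80.4 to 92.8 fragments, which limits counting error only. The value of 1 fragment was the median of low values within a window set beforehand, so the window largely fixed these numbers. FPKM sums were 917209 to 980796 per column. No test was possible with 1 value per group.

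Named were the RNAi targets, UPRmt members, the 15 largest ratios per direction among protein-coding genes with 300 nt of exon or more, as many as 8 called genes from a list the text describes, and members of called runs. Other genes named (lys-1, gst-13, cyp-25A1, clec-60, his-70, his-41, elt-2, vit-5, vit-6, tbh-1, F55B11.2, ule-3 and gsp-4) were chosen after their values were seen. The contrast, the 56 gene lists and the rules were chosen with earlier results of these data known. Other pseudocounts, filters, scalings and gene sets were tried. The procedure was tested on simulated fragments with counting error alone. That simulation held no variation between libraries, so it does not give an error rate for these calls. Sequences were not used here. Python 3.11.15 with pandas 2.3.3, numpy 2.4.6 and matplotlib 3.10.9 was used.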

Additional observations from a re-analysis of the deposited data

Results flagged for a closer look

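Of the called protein-coding genes, 3 were called in opposite directions in the 2 pairs of columns, and this difference was not tested because each group has 1 value. F42C5.3, a gene of the intracellular pathogen response list, had a log2 ratio of 1.81 between the columns labelled hda-1+atp-2 RNAi and dve-1+atp-2 RNAi (10.5 and 2.298 FPKM), against -1.11 between those labelled hda-1 RNAi and dve-1 RNAi (19.8 and 43.9 FPKM). For M199.9 the ratios were 1.23 with atp-2 RNAi and -1.14 without it, and for C25E10.17 they were 2.37 and -2.1. With 5 FPKM in place of 1 FPKM added to every value, none of the 3 was called in both pairs (F42C5.3 had 1.09 and -0.98, M199.9 0.75 and -0.76, and C25E10.17 0.999 and -1.19).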

How the results depend on the processing

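No paired analysis was possible because the table holds 1 value per group, and for the same reason no replicate could be left out. Of 256 named or list genes followed under 9 alternatives, 227 had the same call wherever they were measured and none changed sign. A pseudocount of 5 gave 603 genes called higher, of which 399 departed along the call on the hda-1 side, 86 on the dve-1 side and 11 on both, and 410 were also called with atp-2 RNAi. The same pseudocount left 72 lower genes that departed on both sides and 195 that departed on neither. With a mean of 5 FPKM required, 619 genes were called higher (360 on the hda-1 side), and the lower genes held 200 on the dve-1 side and 123 on both. Without a minimum in the higher column, 257 lower genes departed on neither side, and 1026 were called lower in both pairs. A pseudocount of 0.1 gave 63 higher genes that departed on both sides. Median-of-ratios scaling gave 991 higher and 858 lower genes, and upper-quartile scaling 1006 and 835. The causes were not tested. Leaving out the sperm, core histone and oocyte lists, an alternative chosen after seeing the data, gave 909 and 855. Depth limits genes near 5 FPKM and short genes most.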

Other observations

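Signalling peptides were called in both directions. Beside 6.97% higher and 6.85% lower over all kept genes, among insulin-like peptides, 7 of 28 kept genes were called higher and 3 lower, with ins-22 at 52.8 FPKM in the column labelled hda-1 RNAi, 4.48 FPKM in the dve-1 RNAi column and 4.37 FPKM in L4440, and ins-7 at 61.4, 17.3 and 13.6 FPKM. ins-35 was lower (1.78, 19.4 and 0.283 FPKM). Among neuropeptide genes 10 of 95 were higher and 3 lower, with nlp-26 at 109.6, 26.7 and 32.9 FPKM and nlp-1 at 15.9, 96.9 and 8.90 FPKM. Of the insulin-like peptides kept, 6 passed the filter only through the hda-1-labelled columns, and 3 of the 7 called higher were among them.

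Genes of the epidermis and cuticle differed by member. Of 109 cuticle collagens kept, 23 were called higher in the hda-1-labelled column (21.1%) and 10 lower (9.17%), beside 6.97% and 6.85% over all kept genes. The filter fixed the direction of some of these, with 3 of the 23 kept only through the hda-1-labelled columns and 3 of the 10 only through the dve-1-labelled ones. col-12 was at 87.3, 4.92 and 2.56 FPKM in the columns labelled hda-1 RNAi, dve-1 RNAi and L4440, and col-130 at 3.88, 116 and 0.449 FPKM. The antimicrobial peptide gene nlp-34 was at 358, 20.7 and 4.97 FPKM. Its list of epidermal antimicrobial peptides was split, with 7 called higher (20%) and 6 lower (17.1%) of 35 kept. The median log2 ratio of that list was 0.16, and 1 of the 7 was kept only through the hda-1-labelled columns. The small heat shock gene hsp-16.2 was at 114, 18.9 and 18.3 FPKM, while the desaturase gene fat-7 was at 320, 55.2 and 6.27 FPKM, above L4440 in both RNAi columns. sod-3, a mitochondrial superoxide dismutase gene, was lower in the hda-1-labelled column (36.2, 147 and 103 FPKM).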
